A study of Mus musculus with 9 samples.

Results

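A set of 38 genes that mark macrophages or their polarization was followed in the back skin of mice with dermatitis induced by 2,4-dinitrochlorobenzene (DNCB), a reactive molecule that causes contact allergy. The genes were chosen by name for their known roles in macrophages, with earlier results of these data known. All 38 were among the 34637 genes of the deposited FPKM table, and all 38 were among the 20817 genes that had enough counts to be tested. The mice were C57BL/6 males aged 6 to 8 weeks, with no altered gene named in the labels. Every mouse in both groups was sensitized with 1% DNCB on day 1 and challenged with 0.5% DNCB between day 4 and day 21. The 5 mice of the FJDHF-M group then received the middle dose of Fangji Dihuang formulation (FJDHF), a herbal decoction, by mouth every day after day 7 until day 28, while the 4 mice of the Model group received water. The comparison asked how the macrophage genes of inflamed skin differed with the formulation. Skin without DNCB was not analysed here, so no value below says what the allergen itself did.

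Macrophages of the skin are phagocytes that either live in the dermis for long periods or arise from blood monocytes that enter during inflammation. Their identity depends on the growth factor receptor Csf1r and on the transcription factor PU.1, the product of Spi1. Type 2 cytokines such as IL-4 raise Arg1, Retnla and Chil3 in mouse macrophages, and interferon-gamma with bacterial products raises Nos2. Atopic dermatitis is an inflammation in which type 2 cytokines are prominent. In RNA from whole skin, fewer macrophages and less RNA per macrophage cannot be told apart.

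The RNA of each library came from a piece of whole back skin. Polyadenylated RNA was sequenced, and total counts per library lay between 74648669 and 79474215. Library columns carry codes that the sources do not explain. The 5 codes beginning with MR were taken as FJDHF-M and the 4 beginning with MXL as Model, from the number of columns and the initials. Whether codes such as MR3_4 or MXL12 stand for RNA pooled from more than 1 mouse is not known, so each n counts libraries and p-values measure the spread between them. Keratinocyte markers summed to between 3484 and 16361 CPM (counts divided by the TMM-scaled library size) in every library, and muscle markers to between 419 and 11748 CPM, so the amounts of RNA from these tissues differed between the pieces.

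The genes differed widely in level. On the FPKM scale, which corrects for gene length, Lyz2 had the highest level, at 906 ± 372 (SD, n = 9), and made up 49.1% of the summed FPKM of the set. This gene codes for lysozyme, a bactericidal enzyme of macrophages, monocytes and neutrophils. Ctss followed at 142 ± 52.2, Retnla at 126 ± 122, Lgals3 at 57.8 ± 14.3, Mrc1 at 56.0 ± 20.6 and Fcgr3 at 55.8 ± 21.8, and the spreads of the last 3 overlapped widely. The general macrophage markers were well represented, with Cd68 at 40.7 ± 19.9, Csf1r at 31.4 ± 11.5 and Adgre1, the gene of F4/80, at 30.2 ± 10.2. At the low end were Nos2 at 0.414 ± 0.344, Cd5l at 0.317 ± 0.135 and Marco at 0.0951 ± 0.0524. Marco, a scavenger receptor known from lung and splenic macrophages, had 0 counts in MR3_4. At 3 counts, the floor used here for a gene counted as detected, a library of this depth gives at most 0.0415 CPM.

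**Figure D1:**
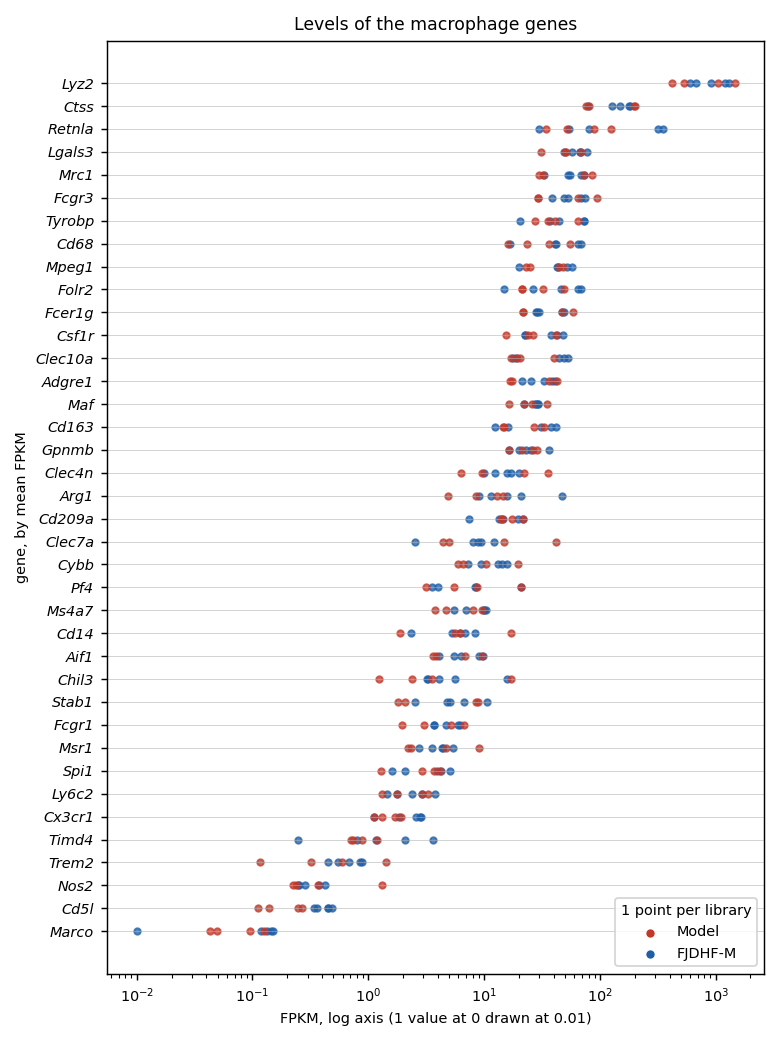
FPKM of each of the 38 genes on a log axis, with 1 point for each of the 9 libraries, red for Model (n = 4) and blue for FJDHF-M (n = 5). The genes are ordered by mean FPKM, from Marco at 0.0951 to Lyz2 at 906, and the points of the 2 groups lie intermixed on nearly every line.

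The DNA next to the start sites was read because these genes share a lineage. RefSeq start sites of build GRCm38.p6 gave a window of 300 bases for 27 of the 38 genes. The letters GAGGAA, the core that PU.1 and other ETS proteins bind, were searched on both strands, where the reverse reads TTCCTC. They occurred in 16 of the 27 genes (59.3%), against 8446 of 27025 genes in the whole table (31.3%). A match of 6 letters is a description of the sequence and not evidence of binding. The bases upstream of 5 genes are shown 5′ to 3′ on the gene's own strand with the matches in capitals. Lyz2 is the most abundant member, Mrc1 has the most matches of the 5, and Cd5l, Clec7a and Retnla are the genes with the largest differences described below.
Lyz2 (chr10:117282322-117282522, minus strand): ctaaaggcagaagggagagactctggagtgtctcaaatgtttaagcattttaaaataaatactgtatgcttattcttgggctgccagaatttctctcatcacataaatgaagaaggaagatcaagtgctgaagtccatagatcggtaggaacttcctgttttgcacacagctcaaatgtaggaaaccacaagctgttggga
Mrc1 (chr2:14229164-14229391, plus strand): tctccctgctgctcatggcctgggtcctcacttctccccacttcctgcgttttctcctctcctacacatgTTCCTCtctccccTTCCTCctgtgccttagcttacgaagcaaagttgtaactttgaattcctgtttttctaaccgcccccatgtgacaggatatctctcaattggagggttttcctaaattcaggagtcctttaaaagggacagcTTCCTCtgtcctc
Cd5l (chr3:87357631-87357880, plus strand): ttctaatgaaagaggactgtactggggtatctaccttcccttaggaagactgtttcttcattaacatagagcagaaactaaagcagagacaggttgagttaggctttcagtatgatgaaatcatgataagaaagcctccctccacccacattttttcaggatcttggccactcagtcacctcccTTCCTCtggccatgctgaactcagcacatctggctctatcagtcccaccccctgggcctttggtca
Clec7a (chr6:129472780-129473029, minus strand): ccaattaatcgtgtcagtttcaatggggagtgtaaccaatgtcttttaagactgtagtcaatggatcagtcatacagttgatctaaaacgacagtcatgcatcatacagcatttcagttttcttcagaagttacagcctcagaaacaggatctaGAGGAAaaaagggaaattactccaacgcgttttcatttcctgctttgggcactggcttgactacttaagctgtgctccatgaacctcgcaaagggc
Retnla (chr16:48842359-48842550, plus strand): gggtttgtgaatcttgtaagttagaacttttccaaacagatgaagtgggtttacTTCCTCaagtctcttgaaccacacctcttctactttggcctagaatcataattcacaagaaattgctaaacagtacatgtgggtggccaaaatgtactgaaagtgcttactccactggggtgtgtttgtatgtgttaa
Within these stretches Mrc1 held 3 matches, and Cd5l, Clec7a and Retnla held 1 each. Lyz2 held 0, so the letters did not follow the level of the RNA among these 5 genes.

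Individual libraries varied widely in the macrophage genes. The sum over the 38 genes was 2305, 4501, 2373 and 5288 CPM in the Model libraries MXL1, MXL12, MXL3_4 and MXL_3. It was 5208, 3253, 5375, 2838 and 3439 CPM in the FJDHF-M libraries MR1, MR3, MR3_4, MR4_5 and MR5. The 2 lowest libraries were both Model, but the second highest was Model too, so the groups overlapped. Counted gene by gene, MR1 lay above the gene's own mean of log2(CPM + 0.5) for 36 of the 38 genes, MR3_4 for 34 and MXL_3 for 32. MXL3_4 lay above it for only 2 genes and MXL1 for 7. The median deviation was 0.52 in MR1, 0.48 in MR3_4, 0.42 in MXL_3 and 0.21 in MXL12 on the log2 scale. It was -0.14 in MR4_5, -0.20 in MR5, -0.22 in MR3, -0.49 in MXL1 and -0.67 in MXL3_4, whereas the median over all tested genes ran from -0.024 to 0.020 in the same libraries.

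The single highest library differed between the genes. MR1 was the highest of the 9 libraries for 12 of the 38 genes (31.6%, against 7.05% of all tested genes), and most of these were lineage genes such as Csf1r, Cd68, Mpeg1 and Ms4a7. MXL12 was highest for 10 genes (26.3%, against 14.5%), among them Fcgr1, Fcgr3, Fcer1g, Cd14, Msr1, Clec4n and Clec7a, which code for Fc receptors, their adaptor and innate sensors. MR4_5 had the highest Arg1 together with the lowest Cd163, Folr2, Timd4, Cd209a, Clec10a and Retnla. MXL3_4 was highest for 0 genes (against 10.9%) and lowest for 10 (26.3%, against 6.64%). Genes of the same lineage thus differed in which library was highest.

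**Figure D2:**
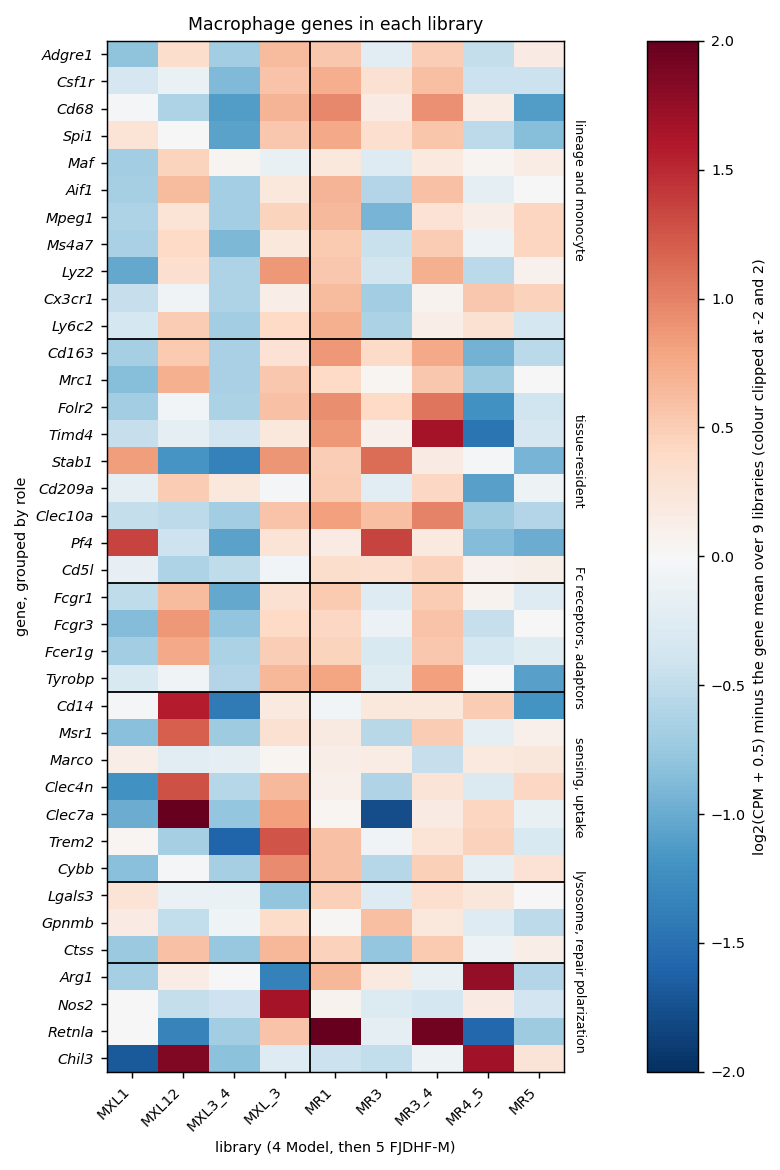
Deviation of log2(CPM + 0.5) from each gene's mean over the 9 libraries, with genes in rows grouped by role, the 4 Model libraries on the left and the 5 FJDHF-M libraries on the right. Columns MR1 and MR3_4 are mostly red, and MXL3_4 and MXL1 mostly blue. MXL12 is red in the rows of Fcgr1, Fcgr3, Fcer1g, Cd14, Msr1, Clec4n and Clec7a (median deviation 1.19 over all sensing rows). It is not red in those of Tyrobp, Cybb, Trem2 and Marco.

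Between the groups, 0 of the 38 genes passed edgeR's quasi-likelihood test after Benjamini-Hochberg adjustment over all tested genes, and 0% of all 20817 tested genes did. DESeq2's Wald test called 2 genes of the whole table (0.00961%) and 0 of the 38. At an unadjusted p under 0.05 edgeR listed 1 of the 38 genes, Cd5l (2.63%), against 1.57% of all tested genes. By direction this was 1 gene higher in FJDHF-M, against 0.773% of all genes, and 0 lower, against 0.793%. The share of the set is thus near that of the table. The estimated difference was higher in FJDHF-M for 30 of the 38 genes (78.9%), against 44.1% of all tested genes. The median log2 fold change was 0.15 for the set and -0.032 for all tested genes. This excess of higher values depended on single libraries. Without MXL3_4, 18 of the 38 genes were higher (47.4%, against 46.2% of all genes) and the median was -0.028. Without MXL1, 22 were higher (57.9%, against 47.2%) with a median of 0.083, without MR1 23 (60.5%, against 44.5%) with a median of 0.034, and without MR3_4 25 (65.8%, against 43.6%) with a median of 0.064. In the other direction the median was 0.23 without MR4_5, 0.31 without MXL12 and 0.39 without MXL_3. A difference of at least 1 on the log2 scale was estimated for 3 of the 38 genes (7.89%, against 3.98%), namely Retnla, Cd5l and Clec7a.

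**Figure D3:**
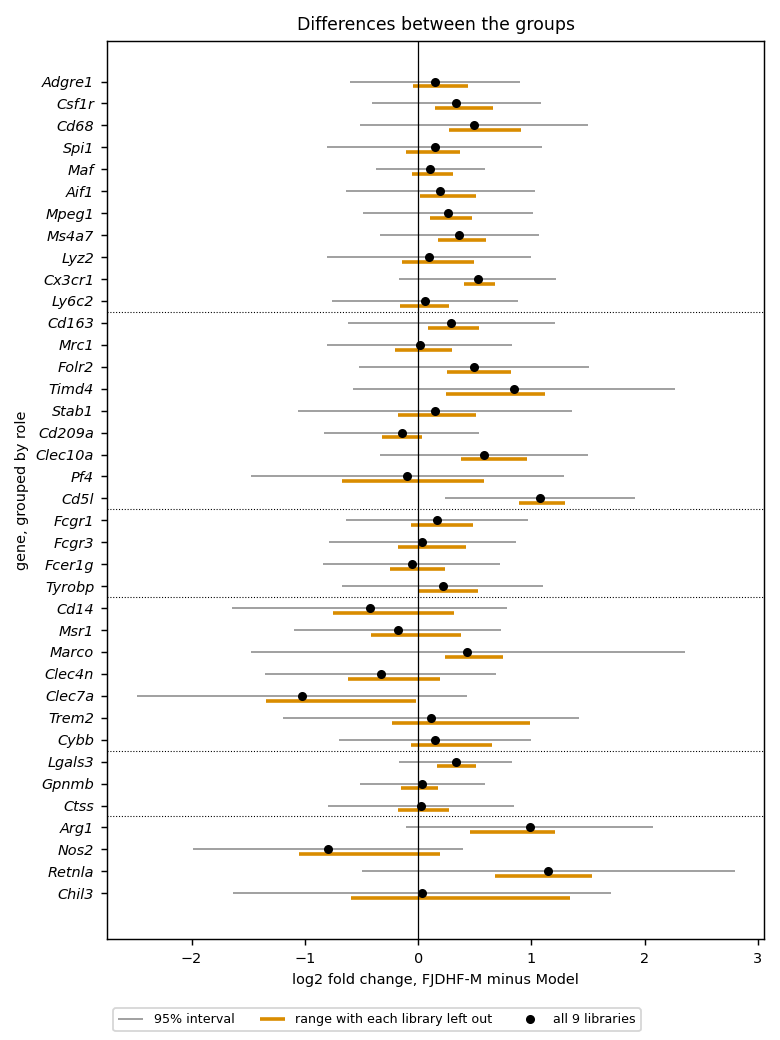
Log2 fold change between FJDHF-M and Model for the 38 genes, with the 95% interval from edgeR in grey and the range over fits that leave out each library in turn in orange. The interval crosses 0 for every gene except Cd5l, whose estimate of 1.07 stayed between 0.89 and 1.29.

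The 11 lineage and monocyte genes had a median log2 fold change of 0.20, with 11 estimates above 0 and 0 with an unadjusted p under 0.05. The median was between 0.067 and 0.12 without MR1, MR3_4, MXL3_4 or MXL1, and between 0.29 and 0.48 without MR3, MXL12 or MXL_3. With offsets by GC content, described below, Spi1 turned from 0.15 to -0.041, which left 10 of the 11 above 0. Lyz2 was at 568, 1458, 751 and 2106 CPM in MXL1, MXL12, MXL3_4 and MXL_3, and at 1682, 900.1, 1898, 798 and 1226 CPM in MR1, MR3, MR3_4, MR4_5 and MR5, an order kept for all genes below. The highest and the lowest value were both in the Model group. Its log2 fold change was 0.092 ± 0.41 (SE from edgeR, two-sided exact permutation p = 0.667). Cd68, a glycoprotein of the endosomal membrane of macrophages, was at 46.9, 30.9, 21.7 and 76.9 CPM in Model and at 92.7, 53.6, 90.1, 52.6 and 21.6 CPM in FJDHF-M. MR1 and MR3_4 were high and MR5 was as low as MXL3_4, so the groups overlapped (log2 fold change 0.49 ± 0.45, exact permutation p = 0.397).

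Cx3cr1, the fractalkine receptor of patrolling monocytes and of some tissue macrophages, had the largest estimate of the lineage genes. It was at 6.08, 8.19, 5.42 and 9.53 CPM in Model and at 13.6, 5.15, 9.09, 12.7 and 12.0 CPM in FJDHF-M. MR3 lay below all Model libraries while MR1, MR4_5 and MR5 exceeded them (log2 fold change 0.52 ± 0.31, exact permutation p = 0.198). Each library was left out in turn. Without MR3, the lowest for this gene, the estimate was 0.68 at an unadjusted edgeR p of 0.0281, against 0.124 with all libraries. The smaller p came from removing the opposing library and is no test of the difference. Ly6c2, a surface protein of freshly recruited monocytes, had the smallest estimate. It was at 5.01, 9.50, 3.87 and 8.82 CPM in Model and at 11.0, 4.05, 7.23, 8.18 and 5.05 CPM in FJDHF-M, and both groups covered nearly the same range (0.063 ± 0.37, exact permutation p = 0.857). The other 7 lineage genes (Adgre1, Csf1r, Spi1, Maf, Aif1, Mpeg1 and Ms4a7) had estimates from 0.11 for Maf to 0.36 for Ms4a7.

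Cd5l gave the clearest separation of the set. It codes for a secreted scavenger receptor protein that is made by tissue macrophages and protects cells from apoptosis, and it lies at chr3:87357881-87371073 on the plus strand (GRCm38). It was at 0.531, 0.251, 0.310 and 0.609 CPM in Model and at 0.969, 0.949, 1.09, 0.718 and 0.752 CPM in FJDHF-M. Every FJDHF-M library lay above every Model library, which was true of 0.514% of all tested genes in either direction and of 0.231% in this direction. The log2 fold change was 1.07 ± 0.38 (95% interval 0.23 to 1.91, edgeR p = 0.0171, adjusted p = 1.00, exact permutation p = 0.00794). The permutation p is the smallest that 4 against 5 libraries allow, and it is not adjusted for the 38 genes. The estimate rested on few reads, 19 to 44 per library in Model and 57 to 79 in FJDHF-M. Leaving out each library in turn moved it from 0.89 without MXL12 to 1.29 without MXL_3, and the unadjusted edgeR p from 0.0101 to 0.0481.

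The 9 tissue-resident genes, Cd5l included, had a median of 0.29, with 7 estimates above 0 and 2 below. The median was 0.095 without MR1, 0.14 without MXL3_4, 0.18 without MR3_4, and between 0.44 and 0.51 without MR5, MXL1, MXL12, MR4_5 or MXL_3. Mrc1, the mannose receptor CD206, was at 195, 577, 223 and 509 CPM in Model and at 462, 359, 512, 213 and 349.9 CPM in FJDHF-M. Model libraries thus took both extremes, and the group means differed by little (0.013 ± 0.37, exact permutation p = 0.849). Folr2, the folate receptor beta of resident macrophages, was at 33.8, 53.3, 35.3 and 82.6 CPM in Model and at 106, 73.2, 117, 23.5 and 41.7 CPM in FJDHF-M. MR1 and MR3_4 were the highest of all libraries and MR4_5 the lowest (0.49 ± 0.46, exact permutation p = 0.516).

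Cd209a, a lectin of dermal macrophages and monocyte-derived dendritic cells, had the smallest estimate of the resident genes. It was at 22.7, 36.5, 29.6 and 25.0 CPM in Model and at 36.7, 21.7, 34.4, 11.8 and 23.9 CPM in FJDHF-M, where MR4_5 stood lowest (-0.15 ± 0.31, exact permutation p = 0.603). The remaining genes Cd163, Timd4, Stab1, Clec10a and Pf4 had estimates from -0.095 for Pf4 to 0.85 for Timd4. The phosphatidylserine receptor gene Timd4 varied the most among them, from 0.554 CPM in MR4_5 to 8.69 CPM in MR3_4, both of the same group. MR4_5 was the lowest library for 5 of the 9 resident genes, and its median deviation over them was -0.86 on the log2 scale.

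Fc receptors bind the antibody that coats particles, and Fcer1g and Tyrobp are the adaptors that carry the signal inward. The 4 genes had a median of 0.10, with 3 estimates above 0. Fcgr3 was at 52.1, 173, 54.8 and 125 CPM in Model and at 127, 87.1, 141, 68.7 and 94.5 CPM in FJDHF-M. MXL12 was highest, and the other 3 Model libraries included the 2 lowest (0.035 ± 0.37, exact permutation p = 0.690). Fcer1g was at 19.6, 54.2, 20.5 and 45.1 CPM in Model and at 43.7, 25.6, 46.6, 24.9 and 26.8 CPM in FJDHF-M, the same order of libraries at the top and the bottom (-0.056 ± 0.35, exact permutation p = 0.889). Tyrobp was at 24.3, 28.7, 19.9 and 47.7 CPM in Model and at 52.1, 25.3, 53.6, 30.1 and 13.9 CPM in FJDHF-M. Here MR5 was lowest and MXL12 was not high (0.22 ± 0.40, exact permutation p = 0.770). Fcgr1, the high-affinity IgG receptor, had an estimate of 0.17.

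The 7 sensing and uptake genes had a median of -0.18, with 3 estimates above 0 and 4 below, the only role group with a median below 0. On the log2(FPKM + 1) scale with limma this median was 0.010. Clec7a, the beta-glucan receptor Dectin-1, had the largest difference. It was at 12.0, 116, 14.1 and 43.5 CPM in Model and at 25.1, 6.76, 27.5, 33.0 and 22.0 CPM in FJDHF-M, with 38.7% of all its counts in MXL12. MXL_3 also lay above all FJDHF-M libraries, while MXL1 and MXL3_4 lay within their range. The log2 fold change was -1.03 ± 0.66 (exact permutation p = 0.524) and became -0.023 without MXL12. Clec4n, the alpha-mannan receptor Dectin-2, was at 9.25, 54.1, 14.7 and 34.9 CPM in Model and at 23.7, 14.5, 26.5, 18.0 and 29.5 CPM in FJDHF-M. Its estimate of -0.33 ± 0.46 (exact permutation p = 0.929) likewise became 0.19 without MXL12.

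The summed markers of neutrophils were highest in that same library. All 14 markers of the neutrophil list were tested, 14 of 14 had estimates below 0, and none was at 0 in all libraries. Their sum was 810.4 CPM in MXL12, from 86.5 to 181 CPM in the other Model libraries and from 98.7 to 199 CPM in FJDHF-M. Most of the sum in MXL12 came from S100a8 (91.8 CPM), S100a9 (256 CPM), Il1r2 (157 CPM), Trem1 (85.2 CPM), Cxcr2 (80.1 CPM) and Csf3r (74.8 CPM). The granule genes Ngp, Ltf and Camp were not high there, at 3.08, 2.42 and 0.529 CPM, and were highest in MXL_3, at 20.5, 12.5 and 2.34 CPM. Mmp8, the collagenase of neutrophils, was at 5.89, 10.3, 4.93 and 9.64 CPM in Model and at 4.35, 2.66, 1.94, 3.95 and 4.13 CPM in FJDHF-M. Every FJDHF-M library thus lay below every Model library, and 0.514% of all tested genes were separated in either direction. Its log2 fold change was -1.18 (exact permutation p = 0.00794, the smallest possible here), and it did not pass the adjusted edgeR test. The other markers of the list had exact permutation p from 0.175 for Ly6g to 0.952 for Csf3r. Neutrophils themselves carry Clec7a, Fcgr3, Fcer1g and Cd14. Over the 9 libraries, log2(CPM + 0.5) of Clec7a followed the log2 of this sum with Pearson's r = 0.87 (permutation p = 0.00239, adjusted p = 0.00956) and Spearman's rho = 0.82 (permutation p = 0.0108, adjusted p = 0.0431), over 4 relations that were chosen after the values were seen. Without MR4_5 and MXL12, the 2 libraries farthest from the median of the sum, r was 0.67. The part of neutrophils in the sensing values was not tested.

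Of the other 5 sensing genes, Cd14, Msr1, Trem2 and Cybb had estimates from -0.43 for Cd14 to 0.14 for Cybb. Marco was at 0.253, 0.0926, 0.103 and 0.207 CPM in Model and at 0.252, 0.262, 0, 0.290 and 0.306 CPM in FJDHF-M. Its highest library held 24 counts, and at this depth no difference was detectable (0.43 ± 0.86, exact permutation p = 0.571). Trem2, a lipid receptor of macrophages that clear debris, ranged from 0.632 CPM in MXL3_4 to 7.77 CPM in MXL_3, both Model.

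The 3 genes of lysosome and repair had a median of 0.036. Ctss, the protease cathepsin S of antigen-presenting cells, was at 113, 284, 111 and 299 CPM in Model and at 260.3, 109.8, 271, 176 and 208 CPM in FJDHF-M. The Model libraries held 2 low and 2 high values, and FJDHF-M spread over nearly the same range (0.022 ± 0.37, exact permutation p = 0.865). Lgals3, galectin-3, was at 132, 99.5, 99.3 and 63.2 CPM in Model and at 153, 91.9, 138, 128 and 109 CPM in FJDHF-M. MXL_3 was lowest and MR1 highest (0.33 ± 0.23, exact permutation p = 0.206). Galectin-3 is also abundant in keratinocytes. Keratinocyte markers summed to between 3484 and 13464 CPM in Model and between 9228 and 16361 CPM in FJDHF-M, with 7 of the 8 markers above 0 in the estimate. Lgals3 followed this sum with r = 0.76 (permutation p = 0.0137, adjusted p = 0.0275) and rho = 0.57 (permutation p = 0.121, adjusted p = 0.241), and with r = 0.47 without MXL12 and MXL_3. The relation thus rested in large part on these 2 libraries, and the part of keratinocytes in the Lgals3 values was not tested. For Gpnmb, a glycoprotein shared by macrophages and melanocytes, r with the melanocyte sum was 0.015 (permutation p = 0.970, adjusted p = 0.970) and rho was 0.10 (permutation p = 0.810, adjusted p = 0.810).

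**Figure D4:**
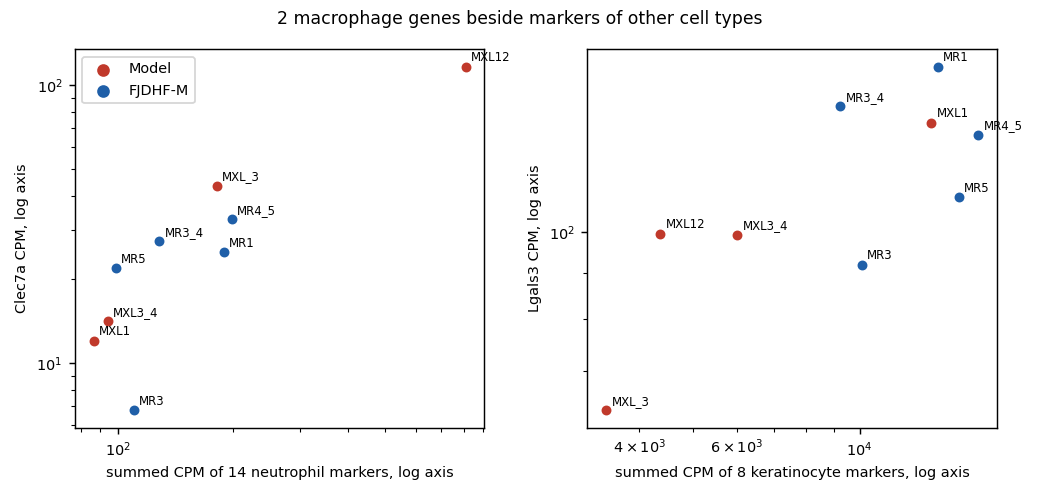
CPM of Clec7a against the summed CPM of 14 neutrophil markers (left) and of Lgals3 against the summed CPM of 8 keratinocyte markers (right), on log axes, with 1 labelled point for each library in the colour of its group. MXL12 lies alone at the upper right of the left panel, at 810.4 CPM of neutrophil markers and 116 CPM of Clec7a, and MXL_3 alone at the lower left of the right panel.

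The 4 polarization genes had a median of 0.51, with 3 estimates above 0 and 1 below. Arg1, the arginase of macrophages exposed to type 2 cytokines and also an enzyme of keratinocytes, was at 19.6, 34.7, 31.0 and 11.9 CPM in Model and at 49.5, 35.7, 28.0, 106 and 20.5 CPM in FJDHF-M. MR4_5 held 32.4% of its counts, MR1 and MR3 also lay above the Model libraries, and MR3_4 and MR5 lay among them. The log2 fold change of 0.98 ± 0.49 (edgeR p = 0.0720, exact permutation p = 0.190) became 0.46 without MR4_5. Over the 9 libraries its r with the keratinocyte sum was 0.49 (permutation p = 0.186, adjusted p = 0.248) and rho was 0.45 (permutation p = 0.230, adjusted p = 0.306), and r was 0.28 without MXL12 and MXL_3.

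Retnla, a small secreted protein also known as RELM-alpha, was at 54.7, 21.5, 33.5 and 81.7 CPM in Model and at 222, 48.6, 209, 18.1 and 33.2 CPM in FJDHF-M. MR1 and MR3_4 were far above the rest, while the other 3 FJDHF-M libraries lay within or below the range of Model. It had the largest log2 fold change of the 38 genes, 1.15 ± 0.74, with a wide interval from -0.49 to 2.79 (exact permutation p = 0.500). Without MR1 the estimate was 0.67. Chil3, a chitinase-like protein also known as Ym1 and also made by neutrophils, was at 2.09, 29.3, 4.18 and 6.43 CPM in Model and at 5.66, 5.38, 7.26, 26.0 and 9.45 CPM in FJDHF-M. A single library was high in each group, MXL12 and MR4_5. The neutrophil sum was 810.4 CPM in MXL12, and 199, 189 and 181 CPM in MR4_5, MR1 and MXL_3. The part of neutrophils in the Chil3 values was not tested. The estimate was 0.035 ± 0.75 (exact permutation p = 0.603), 1.34 without MXL12 and -0.60 without MR4_5.

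Nos2, the inducible nitric oxide synthase, was at 1.67, 1.06, 1.14 and 6.40 CPM in Model and at 1.79, 1.30, 1.20, 1.93 and 1.16 CPM in FJDHF-M. Only MXL_3 stood above 2 CPM. The log2 fold change of -0.80 ± 0.54 (exact permutation p = 0.659) became 0.20 without that library. Arg1, Retnla and Chil3, which IL-4 raises together in cultured macrophages, had their highest values as counted in 3 different libraries, namely MR4_5, MR1 and MXL12. With the shift by GC content described below taken off, Chil3 was at 25.9 CPM in MR4_5 and 25.6 CPM in MXL12. MR4_5 then held the highest value of both Arg1 and Chil3. Retnla was lowest in MR4_5, the library with the highest Arg1.

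**Figure D5:**
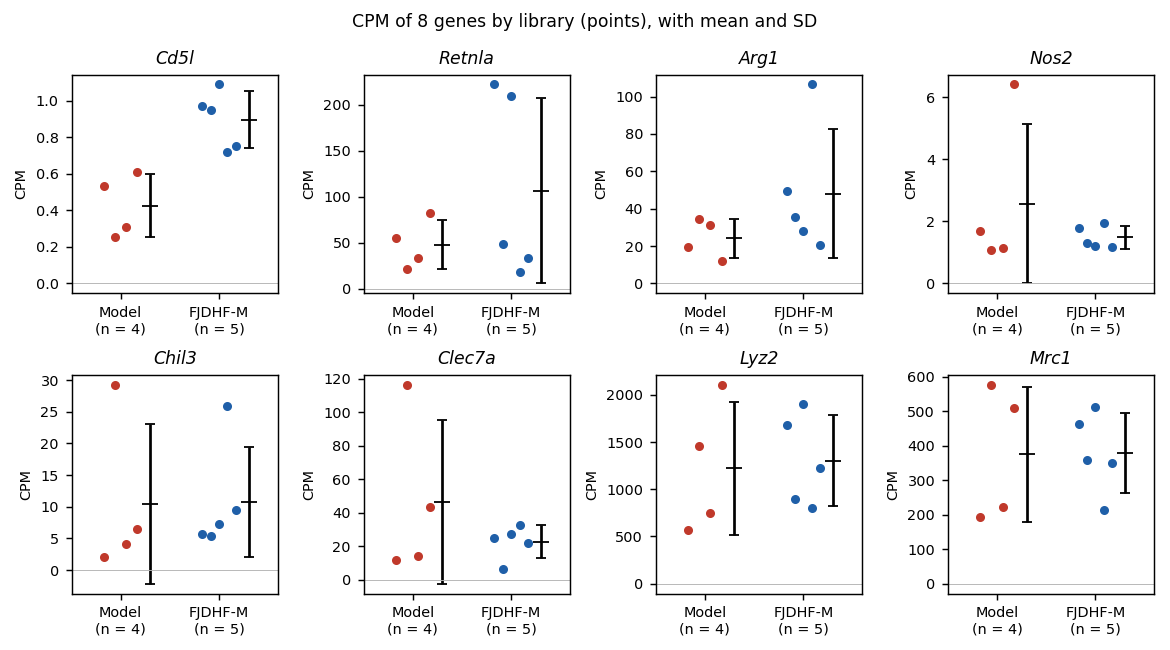
CPM of 8 genes in the 4 Model libraries (red points) and the 5 FJDHF-M libraries (blue points), with the mean and SD of each group beside them on axes that differ between panels. Only for Cd5l do the groups not overlap, and in the panels of Clec7a, Nos2 and Arg1 a single library sets the upper end.

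Among 75 further genes of macrophage biology, 45 had estimates above 0 and 30 below, with a median of 0.043 and 0 past the adjusted test. An unadjusted p under 0.05 in edgeR was reached by 4 of them, against 1.57% of all tested genes. Klf4, a factor of both monocytes and the outer epidermis, had an estimate of 0.62 ± 0.20 (edgeR adjusted p = 1.00, exact permutation p = 0.0317). Krt1 and Krt10, markers of the same outer epidermis, had estimates of 1.48 and 1.23 (exact permutation p = 0.0238 for each). They were the largest of the 8 keratinocyte markers, of which 0 passed the adjusted edgeR test. The others were at 0.81 for Lor, 0.70 for Ivl, 0.43 for Dsg1a, 0.20 for Krt14, 0.15 for Krt5 and -0.20 for Krt15. Ivl was at 161, 86.7, 135 and 67.6 CPM in Model and at 189, 208, 180, 165 and 172 CPM in FJDHF-M. Every FJDHF-M library thus lay above every Model library for Ivl (exact permutation p = 0.00794), as for 0.231% of all tested genes. For the rest the exact permutation p ran from 0.175 for Lor to 0.754 for Krt15. The part of the epidermis in Klf4 was not tested.

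Vsig4, the complement receptor of resident macrophages, was at 1.37, 2.50, 1.17 and 2.10 CPM in Model and at 5.38, 1.77, 5.06, 2.66 and 3.26 CPM in FJDHF-M (1.02 ± 0.39, edgeR p = 0.0265, exact permutation p = 0.0635). MR3 lay within the range of Model and the other 4 above it. Trem1, an activating receptor of neutrophils and monocytes, was at 85.2 CPM in MXL12 and between 0.212 and 3.65 CPM in the other 8 libraries, so its estimate of -4.08 ± 1.66 (edgeR p = 0.0335, exact permutation p = 0.778) came from 1 library. In the lists by function, 14 of 18 further resident genes had estimates above 0 (median 0.20). The 9 monocyte genes had 2 above and 7 below (median -0.22), and the 14 genes of signalling from Fc receptors and related sensors had 7 above and 7 below. The 9 lysosomal genes (median 0.043) and the 8 genes of the IL-4 response (median -0.14) had 0 with a p under 0.05.

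Base composition moved between the libraries as well. Over 15707 genes with a mean of at least 1 CPM, which are not independent replicates, the deviation of a library correlated with the GC content of the transcript at r = 0.55 in MXL1 and 0.54 in MR3, and at -0.52 in MXL12 and -0.59 in MR5. Among the 38 genes the same r was 0.59, 0.52, -0.49 and -0.52. Spi1 (58.9% GC) was at 4.46 CPM in MR5 and at 10.3 CPM in MXL1 as counted, and at 7.55 and 6.11 CPM once the median shift of genes of like GC content had been taken off each library. Clec7a (40.6% GC) in MXL12 changed from 116 to 96.5 CPM and stayed the highest value of the 9. With the same shift as an offset in edgeR, Cd5l was still the 1 gene of the 38 with an unadjusted p under 0.05 (1.05, p = 0.0150, exact permutation p = 0.00794), 29 of the 38 estimates were above 0, and MXL3_4 became the lowest library for 19 of the 38 genes.

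Some of the counts may include reads of neighbours or copies. In the GENCODE M21 annotation, 63.1% of the exon bases of Folr2 and 15.1% of those of Csf1r overlap exons of a gene on the opposite strand (Gm10602 and Hmgxb3). The overlap was 5.34% for Maf, 1.73% for Cx3cr1 and 1.09% for Stab1. The libraries were made strand-specific, but whether the counting used the strand is not given in the sources used here. Stretches of 75 bases that also occur in transcripts of another gene made up 14.2% of Chil3, 7.41% of Ly6c2 (shared with Ly6c1), 7.38% of Fcgr3 (with Fcgr2b), 6.42% of Clec10a (with Mgl2) and 5.96% of Lyz2 (with Lyz1). These shares do not give the size of any error in the counts, which was not measured. The other genes shared no such stretch.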

How the data were processed

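Whole back skin of 4 Model and 5 FJDHF-M mice was profiled by strand-specific sequencing of polyadenylated RNA. The authors deposited whole-number read counts per gene, not normalized, for 55401 genes. A second table deposited by the authors holds FPKM, scaled by them for gene length and depth, of 34637 genes. HISAT, StringTie, DESeq2 and mm10 are named in the submitters' processing notes, while their versions, the annotation release and the use of strand in counting are not given in the sources used here. The counts stand again in 9 columns of the second table and were not read from there.

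The fit to the counts used edgeR 4.0.16 in R 4.3.3 (TMM scaling after filterByExpr, quasi-likelihood test, Benjamini-Hochberg adjustment over all genes tested, no covariate). For single genes an exact permutation test, two-sided, was run on mean log2(CPM + 0.5) over the 126 ways of dividing the libraries into 4 and 5. A level of 3 counts or fewer was taken as the floor, and it covers counting error only. Levels between genes used FPKM and levels between libraries used TMM-scaled CPM.

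The 38 genes, the role groups, the 75 further genes and the marker lists were chosen with earlier results of these data known. Values in every library are given for 20 members, namely those with 1 of the 8 highest mean FPKM, the 2 highest of each role, an unadjusted p under 0.05, groups that do not overlap, over 40% of their counts in 1 library with at least 50 counts there, the 4 polarization genes, and the largest and smallest log2 fold change of each role. Further genes with an unadjusted p under 0.05 are named, except for 1 that is not reported here, and other genes were named after their values were seen.

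Alternatives were DESeq2 1.42.0 (size factors or Wald test), limma 3.58.1 on log2(FPKM + 1) or log2(FPKM + 0.1), no filter, at least 10 counts in every library, leaving out each library, a replicate block, a pseudocount of 0.1, and log2(FPKM + 0.5) for the single-gene test. Offsets by GC content, from the longest GENCODE M21 transcript of 20787 genes in 20 bins, were added after the data were seen. The steps were tested on simulated data. Motifs were read in RefSeq promoter windows, from 250 bases before to 50 after the start, and only bases before the gene as bounded in the deposited table are shown. Copies of the members were looked for as shared stretches of transcript in place of the planned protein identity, since no protein table was used here. Python 3.11.15, scipy 1.17.1 and matplotlib 3.10.9 were used.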

Additional observations from a re-analysis of the deposited data

Results flagged for a closer look

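In 3 genes of the set, 1 library stood apart from the others of its group on the log2(CPM + 0.5) scale, by the ratio of its gap to the whole range of the group, beyond Dixon's 95% limit for its size. For Clec10a, a galactose-binding lectin of macrophages and dendritic cells, MXL_3 lay at 128 CPM while the other Model libraries lay between 52.8 and 61.2 CPM (ratio 0.833). For Marco, MR3_4 had 0 CPM while the other FJDHF-M libraries lay between 0.252 and 0.306 CPM (ratio 0.856). For Clec7a, MR3 lay at 6.76 CPM while the other FJDHF-M libraries lay between 22.0 and 33.0 CPM (ratio 0.740). Chance alone sets about 1 in 20 groups apart in this way, which would be 3.8 of the 76 comparisons made, and 3 were found.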

How the results depend on the processing

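Under each alternative 0 of the 38 members had an adjusted p under 0.05, and Cd5l kept its direction and its unadjusted p under 0.05. With limma on log2(FPKM + 0.1) and log2(FPKM + 1) the sensing median turned to 0.046 and 0.010 and Fcer1g to 0.061 and 0.057. Offsets by GC content, chosen after seeing the data, turned Spi1 from 0.15 to -0.041. Of the numbers that columns of the 2 groups share, the pairs deviated together with r = 0.14, 0.091 and -0.075, so they were not taken as pairs. With the replicate block, 2 members had an unadjusted p under 0.05 (Cd5l and Lgals3, the latter at 0.36), and Marco was at -0.028.

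Leaving out each library in turn moved the members with an unadjusted p under 0.05 between 1 and 2 (Cx3cr1 joined without MR3, Timd4 without MR4_5, Arg1 without MR5, Lgals3 without MXL1 and Clec10a without MXL_3), and those of the further genes between 2 and 7 (4 with all libraries). Members with higher estimates moved between 18 and 32 and their median between -0.028 and 0.39. Role medians moved between 0.067 and 0.48 for lineage, 0.095 and 0.51 for resident, -0.12 and 0.33 for Fc receptors, -0.42 and 0.19 for sensing, -0.0027 and 0.23 for lysosome, and -0.068 and 1.06 for polarization. Log2 fold changes moved between -0.14 and 0.49 for Lyz2, -0.16 and 0.27 for Ly6c2, -0.20 and 0.30 for Mrc1, -0.32 and 0.037 for Cd209a, -0.18 and 0.43 for Fcgr3, -0.25 and 0.24 for Fcer1g, -0.62 and 0.19 for Clec4n, -0.18 and 0.28 for Ctss, -1.06 and 0.20 for Nos2, and -0.60 and 1.34 for Chil3. Differences in mean log2(CPM + 0.5) moved between -0.10 and 0.53 for Lyz2, -0.15 and 0.25 for Ly6c2, -0.15 and 0.37 for Mrc1, -0.37 and 0.024 for Cd209a, -0.078 and 0.50 for Fcgr3, -0.19 and 0.29 for Fcer1g, -0.062 and 0.41 for Tyrobp, -0.47 and 0.36 for Clec4n, -1.02 and 0.053 for Clec7a, -0.12 and 0.35 for Ctss, -0.57 and 0.14 for Nos2, and -0.070 and 1.11 for Chil3. The cause was not tested. With 4 and 5 libraries the 95% interval of Csf1r ran from -0.41 to 1.09 and that of Mrc1 from -0.80 to 0.83, so differences of moderate size could not be detected.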

Other observations

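The other gene lists, which carried 0 genes past the adjusted edgeR test, had the following differences between FJDHF-M and Model. Of the 7 further transcription factors of the macrophage lineage, 6 had estimates above 0 (median log2 fold change 0.35), among them Cebpa at 0.35 and Irf8, which is needed for monocytes and dendritic cells, at 0.44. The 5 genes of growth factors and their receptors had 2 estimates above 0 and 3 below (median -0.12), and the ligands of Csf1r were at 0.05 for Csf1 and 0.14 for Il34. The 5 subunits that work with Cybb in the oxidase had 4 above and 1 below (median 0.069). Of the 18 further resident genes 14 had estimates above 0. Among them the C1q genes, a product of resident macrophages, were at 0.17, 0.25 and 0.53 for C1qa, C1qb and C1qc. The lectin genes Cd209b, Cd209d, Cd209f and Cd209g were at 0.60, 0.41, 0.73 and 1.01. The exact permutation p of these genes ran from 0.270 for Cd209g to 0.786 for C1qa. Below 0 were 4 genes, Apoe at -0.56, Mgl2 at -0.32, Lyve1 at -0.078 and Axl at -0.039. Cd209g was at 3.55 and 3.85 CPM in MR4_5 and MR5, and at 12.5 CPM in MXL1. Clec4d and Clec4e, innate sensors encoded near Clec4n, had estimates of -2.16 and -2.38. Clec4d was at 139 CPM in MXL12 and between 1.61 and 16.3 CPM in the other 8 libraries, and Clec4e at 82.8 CPM in MXL12 and between 0.812 and 12.2 CPM in the others, and neither passed the test.

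Markers of other cell types were compared in the same way. Langerhans and dendritic cell markers had 4 estimates above 0 and 7 below (median -0.14). In edgeR 2 of the 11 had an unadjusted p under 0.05, against 1.57% of all tested genes. They were Ccr7 at -1.55, with between 0.207 and 1.15 CPM, and Siglech at 0.73. The sum of the list was highest in MR1 (1180.2 CPM) and MR3_4 (1073 CPM), where Cd74 alone gave 942 and 829 CPM. Cd74 and Flt3 were highest in MR1, and Cd207 and Siglech in MR3_4. Epcam, Xcr1, Itgae and H2-Ab1 were highest in MXL1, and Zbtb46, Clec9a and Ccr7 in MXL_3. T and NK cell markers had a median of 0.014 and mast cell markers of -0.0026. All 7 melanocyte markers had estimates above 0 (median 0.67) and all 6 fibroblast markers below 0 (median -0.42). Of these 6, 1 had an unadjusted edgeR p under 0.05, Col3a1 at -0.57, against 1.57% of all tested genes. The 8 keratinocyte markers had a median of 0.56, the 6 muscle markers of -0.10 and the 5 fat markers of 0.17.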
